A study of Homo sapiens with 12 samples.

Results

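The 10 genes SNHG1, SNHG5, SNHG6, SNHG7, SNHG8, SNHG12, SNHG15, SNHG16, GAS5 and ZFAS1 are noncoding genes that carry small nucleolar RNAs (snoRNAs) in their introns. They were chosen by symbol, and all 10 were found among the 16271 genes of the count table and passed the filter on low counts. The study asked what 1,25(OH)2D3, the hormonal form of vitamin D, does to RNA levels in HaCaT cells, human skin keratinocytes that became immortal in culture. Total RNA was sequenced from VDR KO cells, in which the gene of the vitamin D receptor was targeted, and from wild type (WT) cells. Each genotype was either exposed to the hormone for 8 h or left untreated, which gives 4 groups of 3 libraries: VDR KO treated, VDR KO untreated, WT treated and WT untreated. All cells were grown in DMEM with fetal bovine serum. The labels give no dose or vehicle for the hormone, and neither the kind of edit nor how many KO clones were used. Nothing in the labels says that the 3 replicates were separate cultures, so p-values measure only the spread between these libraries, which may be technical.

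In such a host gene the snoRNAs are cut out of the spliced introns, and they guide the 2′-O-methylation (box C/D snoRNAs, named SNORD) or pseudouridylation (box H/ACA snoRNAs, named SNORA) of ribosomal RNA. The spliced exons that remain hold no long reading frame, and several of these RNAs are kept low in growing cells by nonsense-mediated decay, which follows their translation. Many host genes start with a run of pyrimidines, as the genes of ribosomal proteins do. RNAs with this start are translated according to the growth signals that reach the cell. GAS5 was found as a transcript that gathers in growth-arrested cells, and its RNA can bind the DNA-binding domain of the glucocorticoid receptor.

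The stretch around the start site is shown for the 3 members that fell with the hormone in WT cells (SNHG5, ZFAS1 and SNHG16) and for the members with the largest difference between the genotypes without hormone, SNHG8 upward and SNHG7 downward. Each run covers 60 bases before and 40 bases after the annotated start, 5′ to 3′ on the gene's own strand, from RefSeq on GRCh38.p14. Capitals mark TATAA where it starts 40 to 20 bases before the start site, and a C followed by at least 4 more pyrimidines where that run reaches within 10 bases of the start on either side.
SNHG5: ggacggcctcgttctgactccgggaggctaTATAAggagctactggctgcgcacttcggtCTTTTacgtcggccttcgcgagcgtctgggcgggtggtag
ZFAS1: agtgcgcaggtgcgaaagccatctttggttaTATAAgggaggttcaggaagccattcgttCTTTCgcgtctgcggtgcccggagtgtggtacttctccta
SNHG16: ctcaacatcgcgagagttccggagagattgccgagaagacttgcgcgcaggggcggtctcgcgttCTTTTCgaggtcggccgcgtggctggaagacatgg
SNHG8: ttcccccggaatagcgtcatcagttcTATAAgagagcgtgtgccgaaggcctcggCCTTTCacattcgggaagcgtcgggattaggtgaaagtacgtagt
SNHG7: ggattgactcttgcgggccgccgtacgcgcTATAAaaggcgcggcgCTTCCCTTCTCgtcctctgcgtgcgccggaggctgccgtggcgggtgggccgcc
These windows lie at chr6:85678694-85678793 (minus strand) for SNHG5, chr20:49278582-49278681 (plus strand) for ZFAS1, chr17:76557704-76557803 (plus strand) for SNHG16, chr4:118278702-118278801 (plus strand) for SNHG8 and chr9:136728145-136728244 (minus strand) for SNHG7. Motifs were counted in the RefSeq promoters of 8 members. SNHG6 and SNHG15 were left out, so the counts say nothing of their promoters. TATAA stood at that place in 5 of the 8 (SNHG5, SNHG7, SNHG8, SNHG12 and ZFAS1), against 3.91% of all 35116 promoters. The pyrimidine run was in 6 of the 8, all but SNHG1 and GAS5, against 38.5% of all promoters. In SNHG7 the run, 11 bases long from position -14, ends before the annotated start. SNHG1 has the pyrimidines tttttct just after its start, which the rule did not count since no C leads them. The DR3 vitamin D response element, searched on both strands of the 300 bases that reach from 250 before to 50 after the start, was in none of the 8 and in 0.074% of all promoters. The hexamer AGGTCA, 1 unit of such a repeat, was in 1 of the 8, GAS5, and in 13.8% of all promoters. The window used for GAS5 (chr1:173869006-173869105, minus strand) lies upstream of the gene as GENCODE v29 places it (chr1:173863900-173868882). Its missing pyrimidine run and its AGGTCA thus hold for that RefSeq start only. These matches are letters in a fixed window and say nothing of whether a factor binds there or elsewhere.

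The libraries held 11485031 to 15992792 counted reads, of which the 10 genes together took 0.232 to 0.291%. CYP24A1, the vitamin D hydroxylase that the receptor switches on, was 34.9-fold higher in treated than in untreated WT libraries (adjusted p = 7.34e-11) and did not pass the test in VDR KO libraries (log2 fold change -0.47 ± 0.15 SE, adjusted p = 0.106). VDR RNA was still counted in VDR KO libraries. All 8 keratinocyte markers on the list were in the table, with a summed level of 935 to 1012 CPM (a gene's count scaled to a common library total) in VDR KO treated, 1147 to 1174 CPM in VDR KO untreated, 2161 to 2341 CPM in WT treated and 2355 to 2819 CPM in WT untreated libraries. The keratinocyte marker sum was thus lower in every VDR KO library than in every WT library. Not every marker was lower. Without hormone 6 of the 8 were lower and 1 higher in VDR KO cells, where 34.2% of all genes were lower and 35.5% higher. The counts were also 6 and 1 with hormone. DSG3 was the higher one, with a log2 fold change of 1.05 without hormone and 0.65 with it. Of 10 markers of other cell types 4 were in the table (CDH5, CD68, COL1A1 and PMEL), and they summed to 10.8 to 14.9 CPM in VDR KO treated, 13.7 to 16.3 CPM in VDR KO untreated, 23.0 to 31.6 CPM in WT treated and 15.2 to 27.2 CPM in WT untreated libraries. With the hormone in WT cells CDH5 of the endothelium rose (log2 fold change 0.82 ± 0.21, adjusted p = 0.00904), and so did CD68 of macrophages (0.58 ± 0.16, adjusted p = 0.0163). The other 2 did not pass, and COL1A1 went the other way (-0.53). Across all genes 11.5% rose. Without the third WT untreated library only 1 of the 4 markers rose. The part of both marker lists in the differences given below, between genotypes and with the hormone, was not tested. In bulk RNA a change in the make-up of a culture and a change in RNA per cell cannot be told apart. The third WT untreated library stood apart from the other 2 on the first principal component (-32.5, against -54.3 and -55.7), so the calls of members that use it, and the counts over the lists of other hosts, particle proteins and decay factors, are also given without it. Values of single genes outside the 10 are given with all 12 libraries.

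In WT cells 3 of the 10 host RNAs fell with the hormone and 0 rose, where 13.0% of the 14676 genes tested fell and 11.5% rose. SNHG5, the host of SNORD50A and SNORD50B, fell the most. It stood at 117, 123 and 118 TMM-scaled CPM (CPM with edgeR's correction for library composition) in WT treated libraries, against 161, 155 and 188 in WT untreated libraries, so the groups did not overlap. That is a 1.41-fold drop (log2 fold change -0.50 ± 0.08 SE, n = 3 each, adjusted p = 0.00042), or -0.40 ± 0.06 without the third WT untreated library (adjusted p = 0.000142). Overlap was looked at for the members only. The share of all genes whose groups did not overlap was not counted, in this or any other comparison. ZFAS1, a host that lies head to head with the coding gene ZNFX1 and carries the SNORD12 family, was at 498, 498 and 453 in WT treated and at 605, 614 and 625 in WT untreated libraries. All 3 treated libraries lay below all 3 untreated ones, a 1.27-fold drop (log2 fold change -0.35 ± 0.07, adjusted p = 0.00272), and the drop was -0.33 ± 0.07 without the third WT untreated library (adjusted p = 0.00103).

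SNHG16, the host of the SNORD1 family, had 123, 136 and 118 TMM-scaled CPM in WT treated libraries and 149, 146 and 153 in WT untreated libraries. The groups did not overlap and the drop was 1.19-fold (log2 fold change -0.25 ± 0.07, adjusted p = 0.0210). The drop was -0.23 ± 0.07 without the third WT untreated library (adjusted p = 0.0239). This call is the least secure of the 3. It was lost when any of 3 libraries was left out, with an adjusted p of 0.0510 without the first WT untreated, 0.0699 without the first WT treated and 0.126 without the third WT treated library, and it was lost when only the WT libraries entered the fit (adjusted p = 0.0612). By an unadjusted p under 0.05, 4 members were lower and 0 higher, and DESeq2 and limma each called 3 and 0. The median log2 fold change was -0.08 over the members and -0.0050 over all genes. Without the third WT untreated library 3 members fell and 0 rose, with a median of -0.07.

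The other 7 members did not pass the test in WT cells, and their values lay between -0.18 and 0.17. SNHG1, which carries SNORD22 and SNORD25 to SNORD31, was the lowest of them at 157, 159 and 145 TMM-scaled CPM in WT treated libraries, against 161, 168 and 193 in WT untreated libraries. These groups did not overlap, with a log2 fold change of -0.18 ± 0.08 (adjusted p = 0.130) that was -0.09 without the third WT untreated library. SNHG7 was at 937, 783 and 916 in WT treated libraries and at 838, 837 and 674 in WT untreated libraries. The third of its untreated libraries was the lowest of the 6 and the groups overlapped (log2 fold change 0.17 ± 0.10, adjusted p = 0.224). GAS5 had 225, 239 and 214 in WT treated libraries and 206, 213 and 237 in WT untreated libraries. These overlapped too, with a difference of 0.05 whose 95% interval ran from -0.11 to 0.20. The remaining values were -0.08 for SNHG8, -0.07 for SNHG6, 0.04 for SNHG12 and 0.05 for SNHG15. Without the third WT untreated library the values were 0.07 for SNHG7, 0.11 for GAS5, -0.05 for SNHG8, -0.11 for SNHG6, 0.13 for SNHG12 and 0.05 for SNHG15, and none of them passed.

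**Figure D1:**
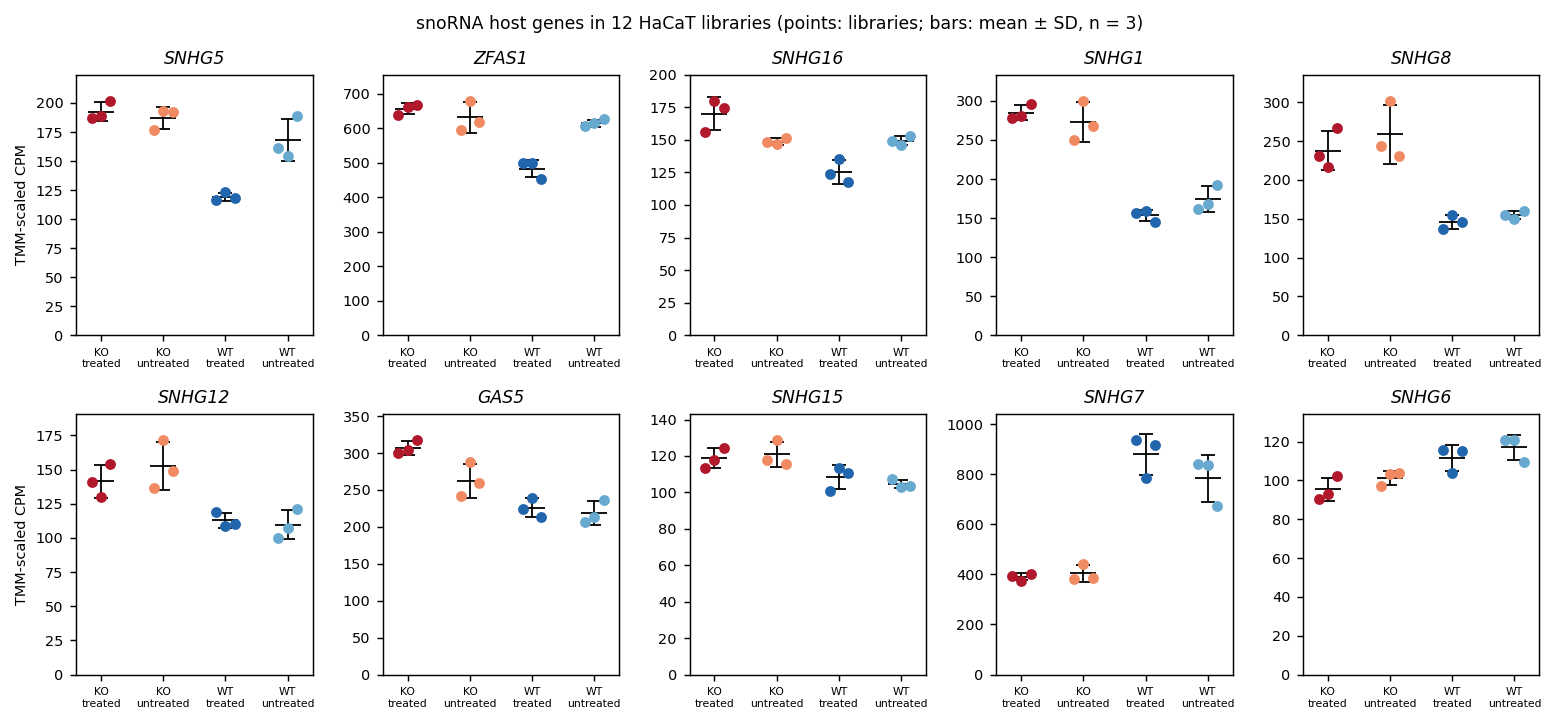
Level of each of the 10 host genes in TMM-scaled CPM (vertical axis, from 0) in each library, by group (horizontal axis). Points are libraries and bars the mean ± SD of 3. SNHG5, ZFAS1 and SNHG16 sit lowest in WT treated libraries, SNHG1 and SNHG8 sit higher in both VDR KO groups than in both WT groups, and SNHG7 sits at 374 to 443 in VDR KO and 674 to 937 in WT libraries.

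In VDR KO cells no member passed the test for the hormone in either direction, where 0.913% of all genes rose and 1.64% fell. By an unadjusted p under 0.05, 2 members were higher and 0 lower, and DESeq2 and limma each called 0 in both directions. Those 2 were GAS5 and SNHG16. GAS5 had 300.2, 304 and 318 TMM-scaled CPM in VDR KO treated libraries, against 242, 288 and 259 in VDR KO untreated libraries. The groups did not overlap, with a log2 fold change of 0.23 ± 0.08 (adjusted p = 0.123), which passed at an adjusted p of 0.0391 when only the VDR KO libraries entered the fit. SNHG16 was at 156, 180.1 and 174 in VDR KO treated libraries and at 148, 147 and 152 in VDR KO untreated libraries, again without overlap (0.19 ± 0.07, adjusted p = 0.145). SNHG5 had 187, 189 and 202 in VDR KO treated and 176, 193 and 192 in VDR KO untreated libraries, which overlapped, and its log2 fold change of 0.04 had a 95% interval from -0.11 to 0.19. ZFAS1 was at 638, 663 and 668 in VDR KO treated and at 595, 679.7 and 618 in VDR KO untreated libraries, with a log2 fold change of 0.06 and an interval from -0.09 to 0.20. Both intervals exclude the values that these genes had in WT cells.

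The test of the difference between the responses in VDR KO and WT cells called the 3 members that fell in WT cells and no other. The log2 response was higher in VDR KO than in WT cells by 0.54 ± 0.11 for SNHG5 (adjusted p = 0.00236), 0.44 ± 0.10 for SNHG16 (adjusted p = 0.00551) and 0.41 ± 0.10 for ZFAS1 (adjusted p = 0.00865). Across all genes this difference was called positive for 13.8% and negative for 12.5%, against 3 and 0 of the members. No member was negative by an unadjusted p under 0.05, by DESeq2 or by limma, and 3 were positive by each of them. These calls held with each library left out in turn, with adjusted p up to 0.0104 for SNHG5, 0.0263 for SNHG16 and 0.0436 for ZFAS1. Without the third WT untreated library the differences were 0.43 ± 0.09 for SNHG5, 0.41 ± 0.09 for SNHG16 and 0.38 ± 0.09 for ZFAS1, and the call was made for 3 members, all positive. The difference shares its 12 libraries with the comparisons within each genotype and is not independent of them.

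Between genotypes without hormone, 5 of the 10 members were higher and 2 lower in VDR KO than in WT cells. Differences between the genotypes were common, with 35.5% of all genes higher and 34.2% lower, so the share of members called is close to that of all genes. The median log2 fold change was 0.18 over the members and 0.010 over all genes. Scaling by library size alone moved the median of all genes to 0.13 without hormone and to 0.13 with it, against 0.010 and 0.024 with TMM scaling.

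SNHG7, which carries H/ACA snoRNAs of the SNORA17 type and was one of the most abundant members in WT cells, showed the largest difference. It had 383, 443 and 385 TMM-scaled CPM in VDR KO untreated libraries, against 838, 837 and 674 in WT untreated libraries. Every VDR KO library lay far below every WT library, a 1.94-fold lower level (log2 fold change -0.96 ± 0.10, adjusted p = 1.79e-07), and -1.06 ± 0.08 without the third WT untreated library. SNHG6, which carries SNORD87, was at 97.3, 103 and 104 in VDR KO untreated libraries and at 121, 121 and 109.5 in WT untreated libraries. Those groups did not overlap either, but the difference was small (log2 fold change -0.21 ± 0.07, adjusted p = 0.0186). It was lost without the first WT untreated library (adjusted p = 0.0696), the second WT untreated library (0.0592) or the first VDR KO untreated library (0.0784), and it was -0.08 with library size alone (adjusted p = 0.324).

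SNHG8, a short host gene that carries SNORA24, was the member raised the most in VDR KO cells. It stood at 244, 302 and 230.4 TMM-scaled CPM in VDR KO untreated libraries, against 154, 149 and 159 in WT untreated libraries, without overlap (1.68-fold, log2 fold change 0.75 ± 0.10, adjusted p = 3.73e-06). SNHG1 had 249.9, 300.4 and 267 in VDR KO untreated libraries and 161, 168 and 193 in WT untreated libraries. The groups were again apart (1.57-fold, log2 fold change 0.65 ± 0.08, adjusted p = 3.07e-06). SNHG12, the host of SNORA16A, SNORA44, SNORA61 and SNORD99, was at 137, 172 and 149 in VDR KO untreated libraries and at 100.3, 107 and 121 in WT untreated libraries. It did not overlap and rose 1.39-fold (log2 fold change 0.48 ± 0.09, adjusted p = 0.000255).

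The other 2 that rose without hormone rose by less. GAS5, at 242, 288 and 259 in VDR KO untreated libraries and 206, 213 and 237 in WT untreated libraries, did not overlap and was 1.20-fold higher (log2 fold change 0.26 ± 0.08, adjusted p = 0.00764). SNHG15, the host of SNORA9, was at 118, 129 and 116 in VDR KO untreated libraries and at 107, 103 and 103 in WT untreated libraries. Its groups did not overlap (1.15-fold, log2 fold change 0.21 ± 0.07, adjusted p = 0.0153), but the call was lost without the second VDR KO untreated library (adjusted p = 0.0674). ZFAS1 (0.04 ± 0.07) and SNHG16 (-0.01 ± 0.07) did not pass the test and their groups overlapped. SNHG5 overlapped as well, at 176, 193 and 192 in VDR KO untreated libraries, against 161, 155 and 188 in WT untreated libraries (log2 fold change 0.15 ± 0.08, adjusted p = 0.0879). It passed without the third WT untreated library (0.24 ± 0.06, adjusted p = 0.00223) and with library size alone (0.28, adjusted p = 0.00700). Without that library 6 members were higher and 2 lower in VDR KO cells. The values were then 0.77 ± 0.12 for SNHG8, 0.72 ± 0.08 for SNHG1, 0.55 ± 0.09 for SNHG12, 0.32 ± 0.07 for GAS5, 0.19 ± 0.07 for SNHG15 and -0.26 ± 0.07 for SNHG6, all of which passed, and 0.05 ± 0.07 for ZFAS1 and 0.0065 for SNHG16, which did not.

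With hormone, 7 members were higher and 2 lower in VDR KO than in WT cells, where 38.4% of all genes were higher and 37.4% lower. The median over the members was 0.44, against 0.024 over all genes. SNHG5, ZFAS1 and SNHG16, which had not passed without hormone, were now higher in VDR KO cells. SNHG5 stood at 187, 189 and 202 TMM-scaled CPM in VDR KO treated libraries and at 117, 123 and 118 in WT treated libraries (1.62-fold, log2 fold change 0.69 ± 0.08, adjusted p = 4.70e-07). ZFAS1 was at 638, 663 and 668 in VDR KO treated libraries, against 498, 498 and 453 in WT treated libraries (1.36-fold, 0.44 ± 0.07, adjusted p = 3.11e-05). SNHG16 was at 156, 180.1 and 174 in VDR KO treated libraries and at 123, 136 and 118 in WT treated libraries (1.35-fold, 0.44 ± 0.07, adjusted p = 4.12e-05). None of the 3 overlapped between the genotypes, and the share of all genes without overlap was not counted.

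The members that differed without hormone kept their direction in treated cells. SNHG1 had 278, 281 and 296 TMM-scaled CPM in VDR KO treated libraries and 157, 159 and 145 in WT treated libraries, the largest rise of the 10 (1.86-fold, log2 fold change 0.89 ± 0.08, adjusted p = 4.88e-08). SNHG8 had 231, 216 and 266 in VDR KO treated libraries and 137, 155 and 146 in WT treated libraries (0.70 ± 0.10, adjusted p = 5.15e-06). GAS5 had 300.2, 304 and 318 in VDR KO treated and 225, 239 and 214 in WT treated libraries, and rose by 0.44 ± 0.08 on the log2 scale (adjusted p = 8.67e-05). SNHG12 had 141, 129.8 and 154 in VDR KO treated and 119, 109 and 110.2 in WT treated libraries, and rose by 0.33 ± 0.09 (adjusted p = 0.00467). None of these 4 overlapped between the genotypes, which again has no share over all genes beside it. SNHG7 had 395, 374 and 402 in VDR KO treated libraries, against 937, 783 and 916 in WT treated libraries. It was 2.25-fold lower (log2 fold change -1.17 ± 0.10, adjusted p = 1.10e-08), with no overlap. SNHG6 was at 90.5, 93.3 and 102 in VDR KO treated and at 116, 104 and 115 in WT treated libraries (-0.22 ± 0.07, adjusted p = 0.0106), a call lost without the first VDR KO treated library (adjusted p = 0.0540) and with library size alone (-0.12, adjusted p = 0.156). SNHG15, at 114, 118 and 125 in VDR KO treated and 101, 113 and 111 in WT treated libraries, did not pass (0.13 ± 0.07, adjusted p = 0.0984) but did with library size alone (0.24, adjusted p = 0.00630).

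**Figure D2:**
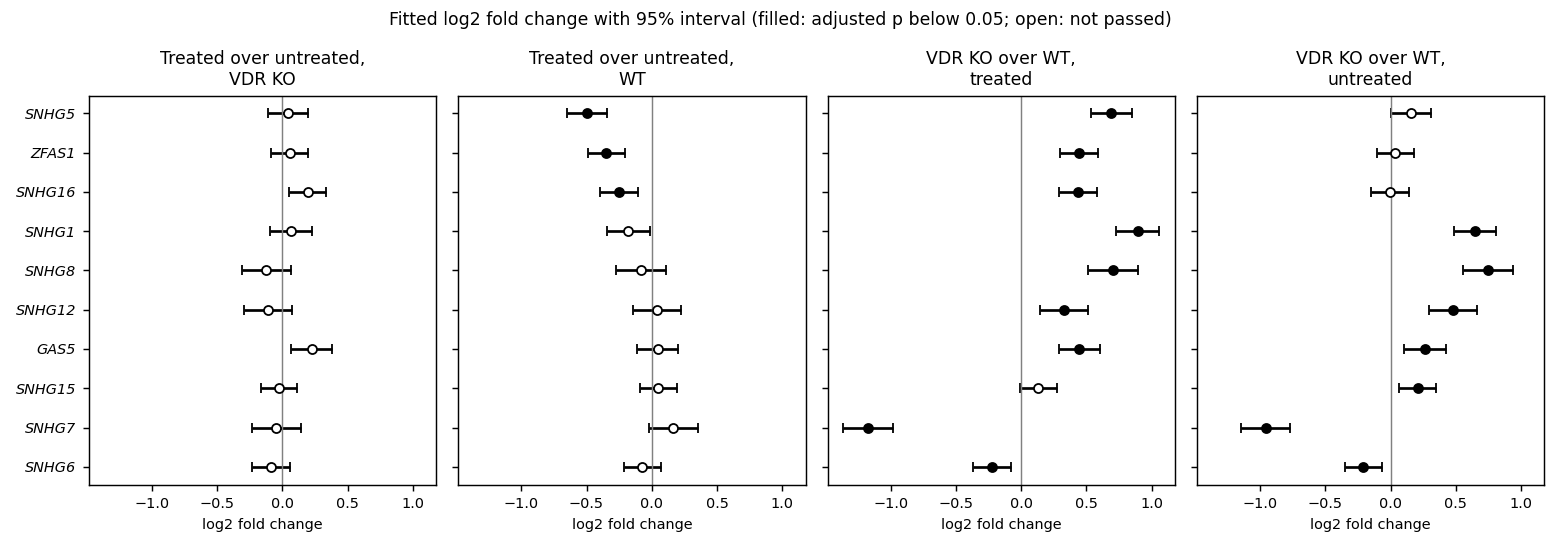
Fitted log2 fold change (horizontal axis) of each host gene with its 95% interval, for treated over untreated cells in VDR KO and in WT, and for VDR KO over WT cells with and without hormone. Filled points passed an adjusted p of 0.05 and open points did not. SNHG7 lies at -1.17 and -0.96 between genotypes, and SNHG5 at -0.50 for the hormone in WT, where its value in VDR KO is 0.04.

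Set per kilobase of annotated exon (the union of a gene's exons in GENCODE v29), the order of the levels differed between the genotypes. ZFAS1 had the highest level in all 4 groups, at 293 ± 7.02 TMM-scaled CPM per kb in VDR KO treated, 281 ± 19.5 in VDR KO untreated, 215 ± 11.5 in WT treated and 274 ± 4.51 in WT untreated libraries (SD, n = 3 each). SNHG8 came next in both VDR KO groups, at 258 ± 27.7 in treated and 280.5 ± 41.2 in untreated libraries, and did not lie apart from ZFAS1 in either. In both WT groups SNHG7 came next, at 202 ± 19.2 in treated and 180.2 ± 21.7 in untreated libraries. It overlapped ZFAS1 in WT treated libraries and SNHG8, which followed at 167 ± 5.53, in WT untreated libraries. In VDR KO untreated libraries SNHG7 followed SNHG8 at 92.8 ± 7.82 per kb, apart from its neighbours on both sides. SNHG12, SNHG15 and SNHG16 were the last 3 in every group, at 23.4 to 35.8 per kb, and their order changed between groups. This scale assumes that every annotated exon is used.

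Some of the counts cannot be given to 1 gene alone, since the sources used here do not say whether reads were counted by strand. On the opposite strand, 249 bases of ZFAS1 overlap ZNFX1, 801 bases of GAS5 overlap ZBTB37, 365 bases of SNHG6 overlap MCMDC2 and 8 bases of SNHG12 overlap TRNAU1AP, all of them counted genes. In GENCODE v29 the genes lie at chr6:85660950-85678748 for SNHG5, chr20:49278178-49295738 for ZFAS1, chr17:76557766-76565348 for SNHG16, chr9:136721366-136728184 for SNHG7, chr4:118278709-118279823 for SNHG8 and chr11:62851988-62855914 for SNHG1, on GRCh38.

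The table also counts reads at the snoRNA genes within the hosts, and these counts fall into classes. A list of the members' snoRNAs had 34 of its 38 symbols in the table, as 38 gene IDs, of which 3 lie elsewhere in the genome and were set aside. Most of the other IDs are not in GENCODE v29, SNORD29, SNORD30 and SNORD77 among them. These were assigned to a host by symbol, and their place within it was not checked. SNORD12 and SNORD12B were placed inside ZFAS1 by their IDs. At 8 IDs the count was at least 90% of the host's. SNORA24, SNORA16A and SNORD1C equalled SNHG8, SNHG12 and SNHG16 in 12 of 12 libraries, so these IDs hold the host's own counts and add nothing to it. Another 3 IDs held 20 to 90% of the host's count: SNORD28 with 28.8% of SNHG1, and SNORD50A and SNORD50B with the same counts as each other, 22.6% of SNHG5. The remaining 24 held under 20%, and 17 of them had enough counts to be tested. Both limits were chosen after the values were seen. Several of the 17 share reads (SNORD47 and SNORD80 had equal counts), so they are not 17 separate measurements. Whether these reads came from the snoRNA or from the unspliced host was not tested.

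The sequences of 3 box C/D snoRNAs are shown: SNORD30 of SNHG1, whose counts are given in full below, and 1 each of ZFAS1 and SNHG5, hosts that fell in WT cells. They are those of GENCODE v29 on GRCh38, matched by symbol. Capitals mark the C box TGATGA and the last CTGA, the D box, the motifs that the proteins of the particle bind.
SNORD30: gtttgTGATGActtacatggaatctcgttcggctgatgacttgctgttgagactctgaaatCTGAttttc
SNORD12B: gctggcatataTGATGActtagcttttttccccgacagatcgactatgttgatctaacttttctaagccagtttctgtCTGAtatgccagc
SNORD50B: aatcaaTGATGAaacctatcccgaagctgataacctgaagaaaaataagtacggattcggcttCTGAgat
SNORD30 lies at chr11:62853663-62853732 (minus strand) within SNHG1, SNORD12B at chr20:49280319-49280409 (plus strand) within ZFAS1, and SNORD50B at chr6:85677589-85677658 (minus strand) within SNHG5.

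In WT cells 12 of the 17 IDs fell with the hormone and 0 rose by edgeR, with a median log2 fold change of -0.57. This count was 6 without the third WT treated library and 8 without the third WT untreated library. In VDR KO cells 2 rose, SNORD29 and SNORD30 of SNHG1, and 0 fell, with a median of 0.52. The count of 2 became 0 without replicate 1 or 3 of VDR KO untreated or replicate 2 or 3 of VDR KO treated cells. The difference between the responses was called for 12 of the 17, all positive, with a median of 0.96. It was called positive for 11 to 15 IDs with 1 library left out, and for 15 without the third WT untreated library. The filter was run again in that fit and kept 32 hosted IDs of all classes, against 31 with all 12 libraries. Its counts are thus not out of the same 17. Between genotypes, 0 were higher and 4 lower in VDR KO cells without hormone, and 15 were higher and 1 lower with hormone. By an unadjusted p under 0.05, 12 fell and 0 rose in WT cells, 15 rose and 0 fell in VDR KO cells, and 0 were higher and 6 lower in VDR KO than in WT cells without hormone. DESeq2 called 10 lower in WT cells and 3 higher in VDR KO cells, and limma 12 and 2. The percentages of all genes given above for the same comparisons are the background of the edgeR counts at an adjusted p below 0.05 only. The share of all genes at an unadjusted p, or by DESeq2 or limma, was not counted in this or any other comparison.

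SNORD30 and SNORD29, whose counts were nearly equal, were the only IDs of the 17 called in both genotypes. SNORD30 had 174, 208 and 224 counts in VDR KO treated and 147, 166 and 156 in VDR KO untreated libraries, and 89, 75 and 80 in WT treated and 109, 135 and 135 in WT untreated libraries. Its log2 fold change with the hormone was 0.62 ± 0.15 in VDR KO cells (adjusted p = 0.0416) and -0.81 ± 0.16 in WT cells (adjusted p = 0.00186), and the difference of 1.43 ± 0.22 was called (adjusted p = 0.000349), which SNHG1 itself was not (0.25 ± 0.12, adjusted p = 0.137). Per 100 counts of SNHG1 it had 5.59 ± 0.77 in VDR KO treated, 3.81 ± 0.32 in VDR KO untreated, 4.10 ± 0.40 in WT treated and 6.36 ± 0.84 in WT untreated libraries (SD, n = 3 each). SNORD77 in GAS5 had 1.48 ± 0.13 per 100 host counts in VDR KO treated, 1.19 ± 0.12 in VDR KO untreated, 1.16 ± 0.10 in WT treated and 1.92 ± 0.33 in WT untreated libraries. With the hormone in WT cells SNORD77 fell (log2 fold change -0.68 ± 0.21, adjusted p = 0.0236), and GAS5 did not pass the test. These ratios were picked after the values were seen and carry no test.

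SNORD50A had 20.7 ± 0.76 counts per 100 of SNHG5 in VDR KO treated, 22.5 ± 1.71 in VDR KO untreated, 23.7 ± 0.40 in WT treated and 24.6 ± 1.62 in WT untreated libraries, and it fell in WT cells (log2 fold change -0.55 ± 0.08, adjusted p = 0.000241), beside -0.50 ± 0.08 for SNHG5. SNORD12B had 1.10 ± 0.20 per 100 of ZFAS1 in VDR KO treated, 1.01 ± 0.11 in VDR KO untreated, 0.853 ± 0.067 in WT treated and 1.03 ± 0.09 in WT untreated libraries. SNORD12, in the same host, had 2.10 ± 0.16 per 100 of ZFAS1 in VDR KO treated, 1.84 ± 0.30 in VDR KO untreated, 2.80 ± 0.09 in WT treated and 2.79 ± 0.20 in WT untreated libraries, lower in every VDR KO library than in every WT library. Without hormone SNORD12 itself was lower in VDR KO than in WT cells (log2 fold change -0.56 ± 0.12, adjusted p = 0.000378), where ZFAS1 did not pass. SNORA17 in SNHG7 moved the most of the tested IDs (difference of responses 2.74 ± 0.54, adjusted p = 0.00179), but it had only 9, 15 and 18 counts in VDR KO treated, 8, 6 and 7 in VDR KO untreated, 7, 6 and 6 in WT treated and 10, 19 and 19 in WT untreated libraries.

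**Figure D3:**
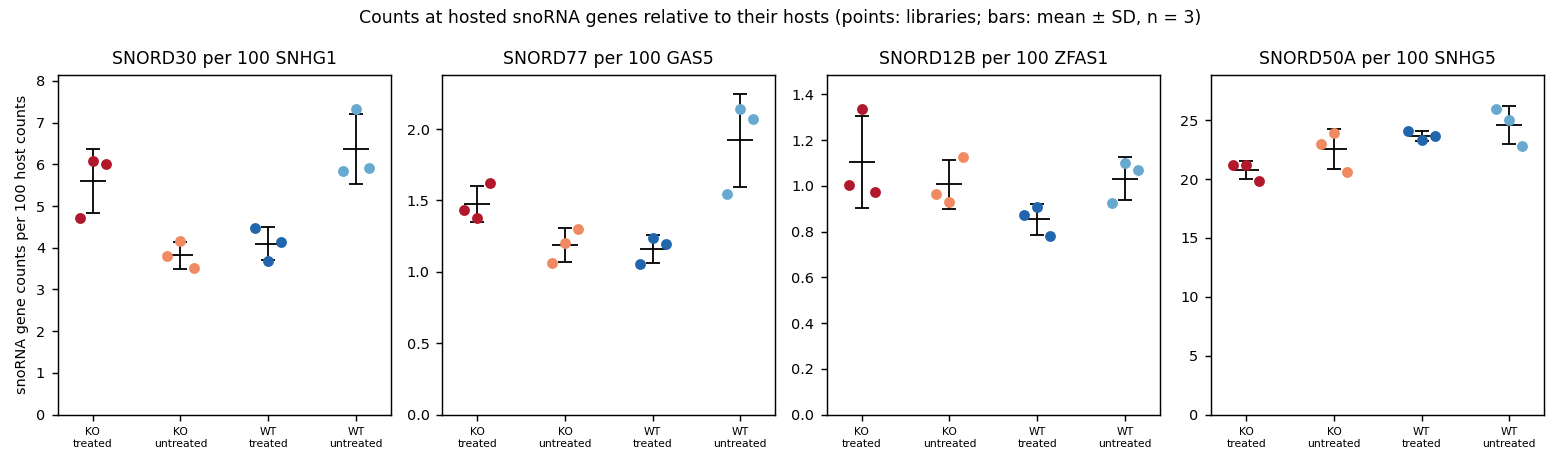
Counts at 4 snoRNA genes per 100 counts of their host (vertical axis, from 0) in each library, by group. Points are libraries and bars the mean ± SD of 3. SNORD30 per 100 SNHG1 lies at 3.50 to 4.48 in VDR KO untreated and WT treated libraries and at 4.71 to 7.34 in the other 2 groups, while SNORD50A per 100 SNHG5 ranges from 19.9 to 26.0.

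Other snoRNA hosts give the setting of these values. Of 22 further noncoding hosts on a list, 7 were in the table, and the hormone in WT cells raised 2 and lowered 1, beside 11.5% of all genes that rose and 13.0% that fell. With the third WT untreated library left out, 1 rose and 0 fell. SNHG9 was at 16.8 ± 1.54 TMM-scaled CPM in WT treated and 11.1 ± 1.14 in WT untreated libraries (log2 fold change 0.60 ± 0.17, adjusted p = 0.0209), and SNHG11 rose by 0.46 ± 0.12 (adjusted p = 0.00988). SNHG3, which carries SNORA73A and SNORA73B, fell to 570.1 ± 59.5 in WT treated libraries, against 784 ± 114 in WT untreated libraries (-0.46 ± 0.12, adjusted p = 0.00898). Its response differed between the genotypes by 0.77 ± 0.16 (adjusted p = 0.00289). Of 25 ribosomal protein genes that carry snoRNAs, 8 fell and 0 rose with the hormone in WT cells, with RPS12 at -0.47 ± 0.07 (adjusted p = 0.000397) and RPL37 at -0.39 ± 0.07 (adjusted p = 0.000786). The count of 8 was 16 without the third WT untreated library, where 12.2% of all genes fell. Of 25 other coding hosts, 5 fell and 0 rose, with that library or without it, with the largest drop at TPT1, the translationally controlled tumour protein, at -0.61 ± 0.10 (adjusted p = 0.000672). RCC1, also among these coding hosts, had levels near those of SNHG3, at 657 ± 58.8 in WT treated and 885 ± 113 in WT untreated libraries. Whether RCC1 and SNHG3 hold the same reads was not tested. At an unadjusted p under 0.05 the counts in WT cells were 13 lower and 0 higher for the ribosomal protein hosts, and 9 lower and 0 higher for the other coding hosts.

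Between the genotypes without hormone most coding hosts were lower in VDR KO cells, in a comparison where 35.5% of all genes were higher and 34.2% lower. None of the 25 ribosomal protein hosts was higher and 18 were lower in VDR KO cells, with a median log2 fold change of -0.38, and RPL13A was at -1.06 ± 0.11 (adjusted p = 1.88e-07). Of the 25 other coding hosts 5 were higher and 14 lower, with PPAN, a ribosome assembly factor, at -1.54 ± 0.10 (adjusted p = 1.11e-09). Of 17 proteins of the snoRNA particle and its assembly, 1 was higher and 11 lower, among them DKC1, the pseudouridine synthase, at -0.97 ± 0.08 (adjusted p = 1.03e-08), GAR1, its H/ACA partner, at -0.96 ± 0.09 (adjusted p = 4.10e-08), and the assembly ATPases RUVBL1 and RUVBL2 at -0.69 ± 0.08 and -0.76 ± 0.08. DKC1 also stands among the coding hosts. Of the 16 factors of nonsense-mediated decay, 2 were higher and 8 lower, with UPF1, the helicase at its centre, at -0.83 ± 0.08 (adjusted p = 7.85e-08) and DHX34 at -1.20 ± 0.07 (adjusted p = 3.24e-10). At an unadjusted p under 0.05, 0 ribosomal protein hosts were higher and 20 lower. Without the third WT untreated library the counts higher and lower were 0 and 18 for the ribosomal protein hosts, 5 and 12 for the other coding hosts, 1 and 11 for the particle proteins and 2 and 8 for the decay factors, where 36.8% of all genes were higher and 35.5% lower. No test was made of the difference between these lists and the members, or between these lists and all genes.

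With hormone, 5 of the 25 ribosomal protein hosts were higher and 15 lower in VDR KO than in WT cells (median -0.34). The counts higher and lower were 6 and 9 for the 25 other coding hosts and 3 and 8 for the 16 decay factors. For the 17 particle proteins they were 3 and 6, with a median of 0.03, against -0.28 without hormone. Of all genes 38.4% were higher and 37.4% lower with hormone. The direction of UPF1 between genotypes was the same with hormone as without it (-1.29 ± 0.08, adjusted p = 3.30e-10). In WT cells the hormone raised UPF1 by 0.35 ± 0.08 (adjusted p = 0.00412) and UPF3A by 0.44 ± 0.08 (adjusted p = 0.00105), and lowered NBAS by 0.64 ± 0.10 on the log2 scale (adjusted p = 0.000267). Of the 16 decay factors 3 rose and 1 fell in WT cells, where 11.5% of all genes rose and 13.0% fell, so the counts are close to what those shares give for 16 genes. None passed in VDR KO cells, where 0.913% of all genes rose and 1.64% fell, and 3 of the factors were higher and 1 lower at an unadjusted p under 0.05. Of the 17 snoRNA particle proteins 5 fell and 0 rose in WT cells (6 and 1 at an unadjusted p under 0.05), with RUVBL1 at -0.45 ± 0.08 (adjusted p = 0.000648) and NOP58, a core protein of the methylation guides, at -0.42 ± 0.09 (adjusted p = 0.00303). The difference of the responses was positive for 7 of the 17 and negative for 1, beside 13.8% and 12.5% of all genes, with NOP58 at 0.69 ± 0.13 (adjusted p = 0.00109). Leaving out the third WT untreated library gave 3 decay factors that rose and 1 that fell in WT cells, 5 particle proteins that fell and 0 that rose, and a difference that was positive for 6 particle proteins and negative for 1.

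**Figure D4:**
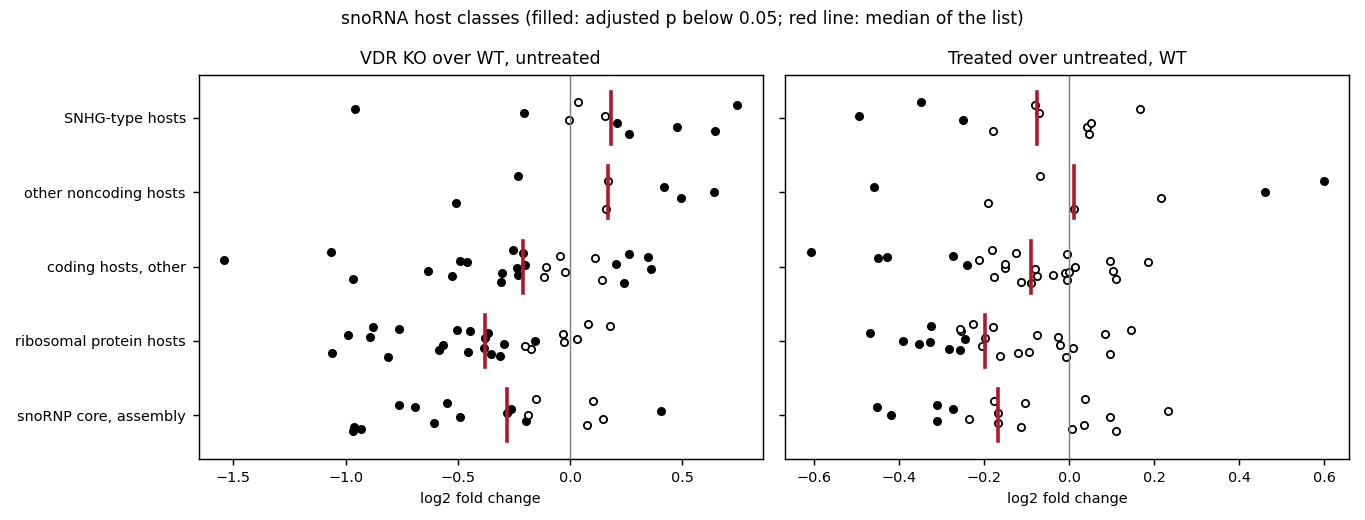
Log2 fold change (horizontal axis) of every tested gene in 5 lists, for VDR KO over WT cells without hormone and for treated over untreated WT cells. Points are genes, filled where the adjusted p was below 0.05, and red lines are the medians of the lists. Without hormone the members' median is 0.18 and that of the ribosomal protein hosts -0.38.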

How the data were processed

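Total RNA of 12 HaCaT libraries was sequenced, 3 in each of 4 groups taken from the labels (VDR KO or WT, treated for 8 h or untreated). The authors deposited raw read counts for each human Ensembl gene ID, and CPM, which match the count's share of its library to within 0.0050. The submitters' processing notes name BWA 0.5.9 and mm9. Since mm9 is a mouse assembly and the IDs are human, which build, annotation, counting tool and strand setting were used remains unknown here. Positions and exon lengths come from GENCODE v29 on GRCh38, where all 10 gene IDs matched, and promoters from RefSeq on GRCh38.p14.

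The test was edgeR 4.0.16 (R 4.3.3) with TMM scaling (factors 0.95 to 1.057), filterByExpr (14676 genes kept, 1595 dropped) and robust quasi-likelihood F tests in a fit of 4 group means to all 12 libraries (common dispersion 0.0117). Each of the 5 comparisons was adjusted over all genes tested (Benjamini-Hochberg), and an adjusted p below 0.05 was a call. An SE is the size of the log2 value over the root of its F statistic. Member levels are TMM-scaled CPM, given in the order of the replicate numbers. Alternatives were DESeq2 1.42.0, limma 3.58.1 on log2 of the deposited CPM plus 1, other scalings and filters, a replicate block, only the groups compared, and each library left out. The script was tested on simulated data. Depth was 11485031 to 15992792 counts per library. The members, the lists and the genes named from them (up to 4 of smallest adjusted p per list and comparison) were chosen with earlier results of these data known. The deposited enrichment tables were not used.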

Additional observations from a re-analysis of the deposited data

Results flagged for a closer look

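For 3 of the 10 host genes the response to the hormone differed between VDR KO and WT cells by the edgeR test of that difference. The log2 response in VDR KO cells minus that in WT cells was 0.54 for SNHG5, 0.44 for SNHG16 and 0.41 for ZFAS1, with 6 libraries in each genotype. In treated cells every library of the 3 genes was higher in VDR KO than in WT cells. The same treated libraries enter the responses, so this is not separate evidence. Of all genes, 38.4% were called higher in VDR KO than in WT treated cells, and the share without overlap was not counted. Without hormone the genotypes overlapped for all 3.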

How the results depend on the processing

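DESeq2, its size factors within edgeR, no filter on low counts, at least 1 CPM in every library and the replicate block changed no call of a member. Same-numbered libraries did not deviate together (1 of 18 pairs correlated above 0.1, range -0.18 to 0.12), and with the block 1 of the hosted snoRNA IDs rose in VDR KO cells in place of 2. With only the groups compared, 1 member (GAS5) rose with the hormone in VDR KO cells, 1 in place of 2 was lower in VDR KO than in WT cells without hormone, and 4 snoRNA IDs rose in VDR KO cells. With library size alone, and with limma, 1 member in place of 2 was lower in VDR KO cells without hormone and 1 with hormone, SNHG6 being the one lost; the median of all genes was then 0.13 (library size) or 0.12 (limma) in both. Leaving out 1 library gave 1 to 2 members lower in VDR KO cells without hormone and 1 to 2 with hormone, 6 to 9 snoRNA IDs lower with the hormone in WT cells, and 0 to 2 higher in VDR KO cells. The sign changed for values near 0 that were not called. SNHG16 between genotypes without hormone was 0.12 with library size alone and with limma, 0.00081 with no filter and 0.0057 with 1 CPM in every library. Over the left-out libraries it ran from -0.022 to 0.0065, ZFAS1 there from -0.019 to 0.079, SNHG12 with the hormone in WT cells from -0.0079 to 0.13, and with the hormone in VDR KO cells SNHG7 from -0.084 to 0.024, SNHG8 from -0.21 to 0.0025 and SNHG15 from -0.060 to 0.023. The difference of responses ran from -0.085 to 0.017 for SNHG6 and from -0.13 to 0.083 for SNHG8. The cause was not tested. Without the third WT untreated library 16 in place of 8 ribosomal protein hosts fell with the hormone in WT cells, and 1 rose and 0 fell in place of 2 and 1 among the 7 other noncoding hosts. The snoRNA IDs were counted, and that library was left out of the list counts, after the data were seen.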
